A study of Danio rerio with 48 samples.

Results

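Whole zebrafish embryos that were homozygous mutant for noc2l (noc2l -/-, 9 embryos) were compared with homozygous wild types (noc2l +/+, 6 embryos) at 24 hours post fertilisation (hpf). These 15 embryos were taken by age from the 48 of the series, in which the same genotypes were also sampled at 36 hpf (9 mutants and 8 wild types) and 48 hpf (7 mutants and 9 wild types). All embryos were of the RIKEN WT strain and of 1 family, and each library held the RNA of a single whole embryo, so no tissue was separated. The labels name 1 allele, whose lesion the sources used here do not give, so the mutants stand for that allele in that family only. Expression is given as CPM, counts per 1000000 counts of a library after scaling between libraries, and differences as log2 values of mutants minus wild types, so that a positive value means higher in mutants.

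Noc2l is a protein of the nucleolus, the place where ribosomes are built; its yeast counterpart Noc2 travels with the precursor of the large ribosomal subunit. When ribosome building fails, animal cells are known to stop dividing or to die, and genes such as mdm2, ccng1 and the pro-apoptotic bax and bbc3 are textbook members of that response. A 24 hpf zebrafish embryo is itself changing fast, with the last somites forming at the tail bud while muscle, blood and the nervous system mature, so embryos of the same clutch and clock age can differ in stage.

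Of 16431 genes tested, 20 passed (0.122%), 18 of them higher in mutants (0.11%) and 2 lower (0.0122%), by edgeR's quasi-likelihood test with Benjamini-Hochberg adjustment at 0.05. Most of the higher genes followed 1 of 2 patterns. The arrest-associated ccng1 and rps27l and 5 clone-named genes were higher in mutant embryos 4, 6, 8 and 9 than in the other 5 mutants. mdm2 and isg20 had the same 4 leading embryos. Both exceeded every wild type in 8 of 9 mutants, as did BX470240.1, 1 of the 5 clone-named genes. zgc:56699 and SH3TC1 were higher in every mutant than in every wild type, and si:dkey-126g1.9, si:ch211-134c9.2, CT027638.1 and malb were so in 8 of 9 mutants. The 2 lower genes were noc2l and pdia6. The fit used all 48 libraries, which share 1 estimate of spread per gene; with the 15 libraries of 24 hpf alone, 8 of 13406 genes passed (0.0597%), 7 of which were also among the 20. Those 7 were zgc:56699, SH3TC1, isg20, mdm2, noc2l, si:dkey-126g1.9 and si:ch211-134c9.2. Leaving out wild-type embryo 1 raised the count to 34, and no other single embryo moved it by over 1.5 times.

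**Figure D1:**
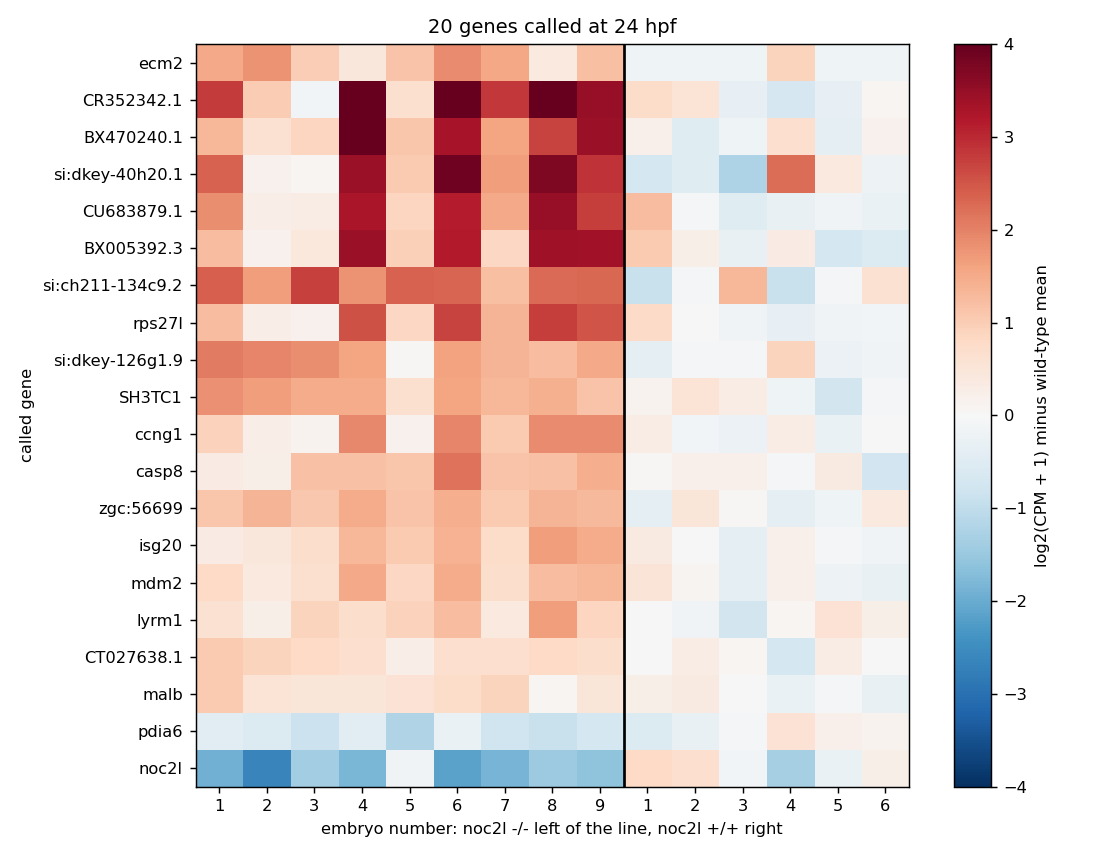
Each row is 1 of the 20 genes called at 24 hpf and each column an embryo, mutants 1 to 9 left of the line and wild types 1 to 6 right of it. Colour is log2(CPM + 1) minus the wild-type mean, with values beyond 4 drawn as 4. Mutants 4, 6, 8 and 9 are darkest for CR352342.1, BX470240.1, rps27l and ccng1, whereas zgc:56699 and SH3TC1 are raised across all mutants.

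In units of 1000000 counts, libraries held between 1.98 and 11.02 in mutants, against 0.798 to 5.24 in wild types. Total counts, genes detected, the share of the 10 most abundant genes and the mitochondrial share did not pass exact two-sided permutation tests (adjusted p between 0.229 and 0.524 over the 4 measures). The library labelled wild-type embryo 4 was the shallowest, and the library labelled mutant embryo 5 differed from the other mutants in noc2l itself. Both are described next, and several results that rest on them are given with and without them.

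noc2l was lower in mutants by 1.93 ± 0.34 on the log2 scale (log2 difference -1.93, SE 0.34, edgeR adjusted p = 0.00108). It measured 4.01, 2.08, 6.31, 4.35, 16.3, 3.33, 4.198, 5.98 and 5.19 CPM in mutant embryos 1 to 9, against 31.9, 29.4, 16.8, 6.54, 14.8 and 21.5 CPM in wild-type embryos 1 to 6. 8 of the 9 mutants lay below every wild type, but the library labelled mutant embryo 5 lay within the wild-type range and the library labelled wild-type embryo 4 lay close to the mutants. The first rested on 44 counts, for which the exact Poisson 95% interval is 11.8 to 21.8 CPM. The second rested on 6 counts, for which the interval is 2.40 to 14.2 CPM; both intervals cover counting error only. Without these 2 libraries the log2 difference was -2.39. For noc2l they were the highest mutant and the lowest wild type, so this wider difference follows from which libraries were left out. noc2l was still counted in every mutant library, at 12 to 58 counts, and since the reads come mainly from 3' ends they do not show whether the message is intact.

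**Figure D2:**
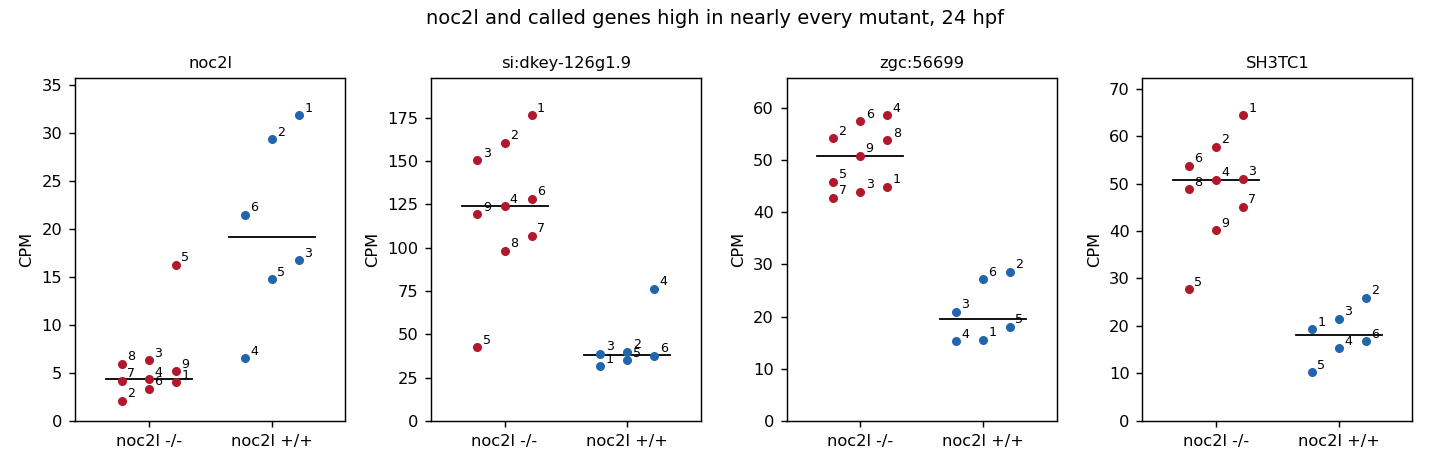
CPM of noc2l, si:dkey-126g1.9, zgc:56699 and SH3TC1 in each embryo, with the embryo number beside its point and the group median as a line. Mutant embryo 5 is the highest mutant for noc2l at 16.3 CPM. It is the lowest for si:dkey-126g1.9 at 42.5 CPM and for SH3TC1 at 27.7 CPM. zgc:56699 and SH3TC1 are higher in all 9 mutants than in all 6 wild types, which reach 25.96 CPM for SH3TC1.

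The separation of genotypes was widest for zgc:56699, which RefSeq names gtsf1; its mouse and fly counterparts act with the small RNAs that silence transposons in germ cells. It had 44.9, 54.2, 43.9, 58.6, 45.8, 57.4, 42.7, 53.8 and 50.8 CPM in mutants 1 to 9, against 15.5, 28.6, 20.95, 15.3, 17.99 and 27.2 CPM in wild types 1 to 6. No mutant overlapped a wild type, and the spread among mutants was small (coefficient of variation 12.1%). The log2 difference was 1.22 ± 0.17 (SE; edgeR adjusted p = 1.73e-05), and the gene passed under all 28 alternatives run. SH3TC1, named for its SH3 domain and tetratricopeptide repeats, was the other called gene without overlap. It ranged from 27.7 to 64.4 CPM with a median of 50.8 in mutants, against 10.2 to 25.96 CPM with a median of 18.02 in wild types (log2 difference 1.41 ± 0.25, edgeR adjusted p = 0.00227). The lowest mutant was embryo 5, and the next lowest, embryo 9, had 40.2 CPM.

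Over all tested genes, 7 had every mutant above every wild type (0.0426%) and 2 every mutant below every wild type (0.0122%). Each outcome arises in a single one of the 5005 arrangements of 9 and 6 embryos. Among so many genes, some would therefore separate without any genotype effect. Beside the 2 called genes, the higher ones were chd8, gpr143, pold3, crebbpa and si:dkey-83h2.3, and the lower ones pwwp2b and BX005153.2; these 7 were picked out after their values were seen. chd8, a chromatin remodeller, had a median of 16.2 CPM in mutants and 9.66 CPM in wild types, and crebbpa, a histone acetyltransferase, 15.9 CPM in mutants and 9.93 CPM in wild types. pold3, an accessory subunit of DNA polymerase delta, was low throughout, at 1.43 to 6.30 CPM in mutants and 0 to 1.36 CPM in wild types. None of these 7 passed after adjustment in edgeR; the adjusted p was 0.135 for chd8, 0.15 for crebbpa and 0.101 for pold3.

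si:dkey-126g1.9, whose product the files do not describe, showed 176.4, 160.5, 150.3, 123.9, 42.5, 128.3, 106.7, 98.1 and 119.3 CPM in mutants 1 to 9, against 31.5, 39.8, 38.6, 76.3, 34.9 and 37.6 CPM in wild types 1 to 6. Mutant 5 was the only mutant within the wild-type range, and wild type 4 the highest of the wild types, the same 2 libraries that stood apart in noc2l. The log2 difference was 1.58 ± 0.27 (edgeR adjusted p = 0.00114), and 1.86 without these 2. As they were the lowest mutant and the highest wild type for this gene, the wider difference follows from leaving them out. By the RefSeq table of another assembly, both si:dkey-126g1.9 and zgc:56699 lie on the chromosome of noc2l. That chromosome held 3 called genes of 481 tested (0.624%), noc2l included, against 10 of 13264 (0.0754%) on the other chromosomes and 7 of 2686 (0.261%) among genes that could not be placed, SH3TC1 among them. The mutants are homozygous at noc2l, so they may also share nearby sequence of the chromosome that the allele came with. How near these genes lie to noc2l is not known here, as no coordinates were used. An effect of noc2l and one of nearby sequence on the same chromosome cannot be told apart here.

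3 more called genes, with other leading embryos than ccng1, were raised in 8 of 9 mutants above every wild type. The clone-named si:ch211-134c9.2 had 3.24 to 11.4 CPM in mutants, against 0 to 3.63 CPM in wild types (log2 difference 2.45 ± 0.53, edgeR adjusted p = 0.0201; 2.34 and adjusted p = 0.0592 without wild type 4). CT027638.1 had 118.2 to 204.6 CPM in mutants, against 60.0 to 122.8 CPM in wild types (log2 difference 0.69, adjusted p = 0.0116; 0.59 and 0.0702 without wild type 4). malb, a gene for a membrane-sorting protein, had 29.4 to 57.5 CPM in mutants, against 22.2 to 35.2 CPM in wild types (log2 difference 0.61, adjusted p = 0.0396; 0.57 and 0.121 without wild type 4). Without wild type 4 and mutant 5 together, CT027638.1 passed (0.64, edgeR adjusted p = 0.0213) and the other two did not. For CT027638.1 mutant 5 was the lowest mutant, at 118.2 CPM, and the only 1 within the wild-type range. Leaving mutant 5 out thus raises this difference by the choice of library. The call of si:ch211-134c9.2 was also lost without wild type 1, 2 or 5, at adjusted p up to 0.0828, and that of malb without wild type 3, 5 or 6 or mutant 1, 6 or 7, at adjusted p up to 0.154.

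Some of the growth arrest and cell death genes gave the other pattern. Of 32 listed genes tested, 4 were called higher in the fit of all 48 libraries (mdm2, ccng1, rps27l and casp8) and none lower. Over all genes 0.11% were called higher. With the 24 hpf libraries alone only mdm2 of the list passed. Of the 32, 12 had a negative difference, beside 7854 of all 16431 genes. The list's median log2 difference was 0.28, beside 0.02 for all genes. That median was 0.15 without wild type 4 and mutant 5, 0.18 with a score of each embryo's developmental age as a covariate, and 0.09 with that score in the 24 hpf libraries alone. ccng1, encoding the arrest-associated cyclin G1, had 914.5, 577.7, 529.3, 1815, 537.1, 1855, 996.7, 1775 and 1768 CPM in mutants 1 to 9, against 592.8, 443.0, 402.0, 584.4, 399.2 and 479.7 CPM in wild types 1 to 6. Mutants 4, 6, 8 and 9 lay close together, mutants 1 and 7 in between, and mutants 2, 3 and 5 within the wild-type range. The log2 difference of the means was 1.31 ± 0.21 (SE; edgeR adjusted p = 0.00108). With the 24 hpf libraries alone the difference was 1.29 ± 0.33 and the edgeR adjusted p 0.647. The fitted biological coefficient of variation of ccng1 was 41.95% at 24 hpf, 16.98% at 36 hpf and 12.8% at 48 hpf. The spread shared over the 3 ages thus gave ccng1 a smaller SE than the 24 hpf libraries alone.

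rps27l, a stress-inducible relative of a ribosomal protein gene whose reads could be shared with its paralogs, had the same 4 leading embryos. It had 175.9, 91.1, 83.8, 447.1, 133.7, 495.2, 194.3, 511.9 and 437.2 CPM in mutants 1 to 9, against 128.4, 73.3, 67.3, 58.9, 68.2 and 69.2 CPM in wild types 1 to 6 (log2 difference 1.87 ± 0.31, edgeR adjusted p = 0.00108; 0.646 with the 24 hpf libraries alone). Mutants 4, 6, 8 and 9 were again far above the rest, and only mutants 2 and 3 lay within the wild-type range, which wild type 1 widened. The SE of rps27l was 0.47 with the 24 hpf libraries alone.

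mdm2, a ubiquitin ligase gene that stress switches on, was raised more evenly. It had 87.8, 65.1, 77.7, 143.5, 87.9, 139.2, 81.9, 118.5 and 126.3 CPM in mutants 1 to 9, against 71.7, 53.1, 38.8, 57.8, 43.2 and 40.3 CPM in wild types 1 to 6. Mutants 4, 6, 8 and 9 led here too, yet 8 of 9 mutants exceeded every wild type. The log2 difference was 1.04 ± 0.16 (edgeR adjusted p = 6.56e-05), and it passed under all 28 alternatives run, the fit of the 24 hpf libraries among them (adjusted p = 0.014). casp8, the initiator caspase of the death-receptor pathway, was highest in mutant 6 at 28.9 CPM, and mutants 3, 5 and 7, at 14.1, 13.3 and 13.5 CPM, stood level with mutants 4 and 8, at 13.97 and 13.9 CPM. Its median was 13.9 CPM in mutants and 6.25 CPM in wild types (log2 difference 1.29 ± 0.28, edgeR adjusted p = 0.0201), and it did not pass with the 24 hpf libraries alone (adjusted p = 0.28) or without wild type 6 or mutant 6 (adjusted p up to 0.122).

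**Figure D3:**
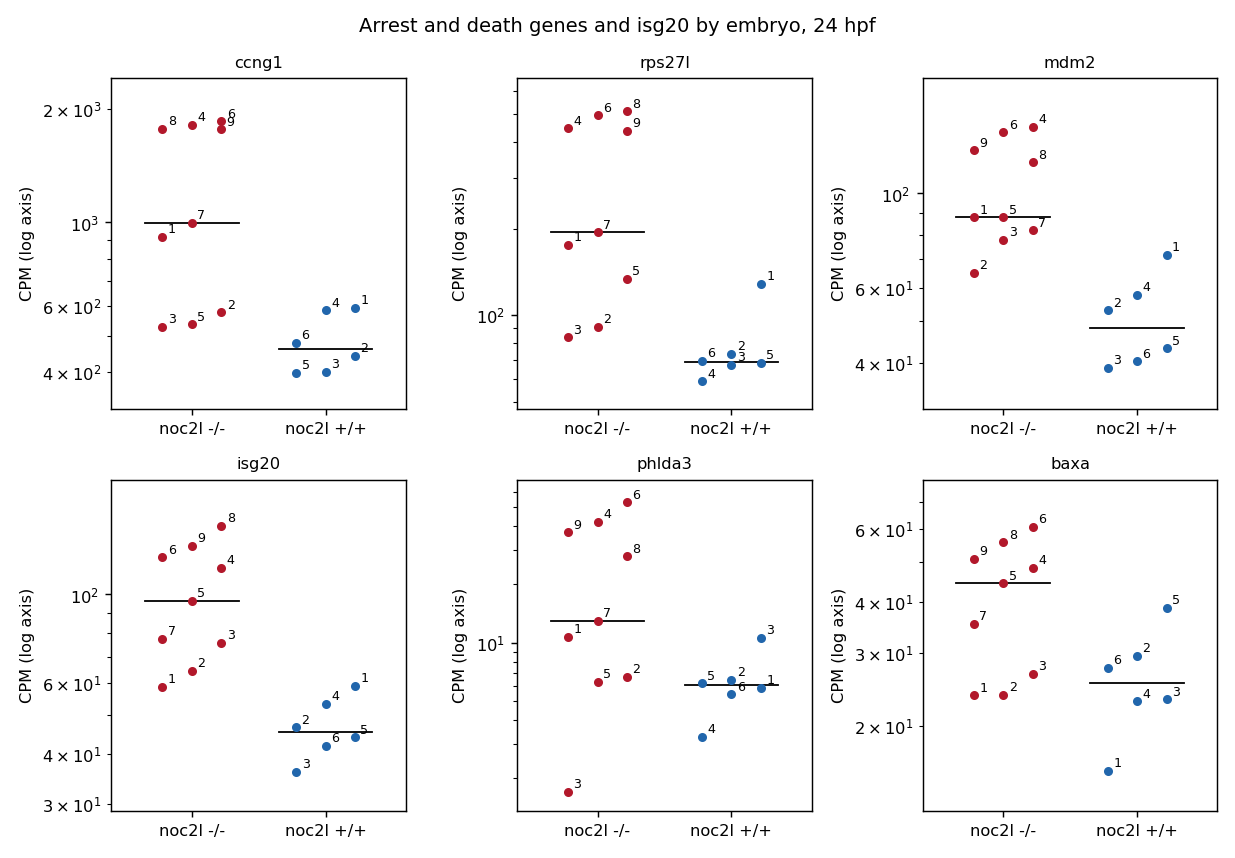
CPM on log axes of ccng1, rps27l, mdm2, isg20, phlda3 and baxa in each embryo, with embryo numbers and group medians as lines. In all 6 panels mutants 4, 6, 8 and 9 are the 4 highest embryos, at 1768 to 1855 CPM for ccng1 against at most 592.8 CPM in wild types. These 4 were taken from the ranking of ccng1, and the genes shown all share it. The called casp8 is not shown, and its 4 highest embryos were mutants 3, 4, 6 and 9.

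The listed genes that did not pass had the same leading embryos in several cases. phlda3, an inhibitor of Akt signalling, had 10.7, 6.68, 1.70, 41.9, 6.28, 52.96, 12.98, 27.9 and 37.1 CPM in mutants 1 to 9, against 3.27 to 10.6 CPM in wild types (log2 difference 1.75 ± 0.44, edgeR adjusted p = 0.105). The pore-forming baxa had a median of 44.3 CPM in mutants and 25.4 CPM in wild types (log2 difference 0.61 ± 0.18, adjusted p = 0.208), and the pro-apoptotic bbc3 8.59 CPM in mutants and 2.68 CPM in wild types (1.16 ± 0.37, adjusted p = 0.318). For all 3 the 4 highest embryos were mutants 4, 6, 8 and 9. Of these 3, only phlda3 lies on the chromosome of noc2l by the RefSeq table. The limit given above for nearby sequence thus applies to it. pmaip1, another pro-apoptotic gene, exceeded every wild type in 7 of 9 mutants (log2 difference 0.90, adjusted p = 0.37), whereas mdm4, the relative of mdm2, had 13.6 to 29.2 CPM in mutants and 22.2 to 52.3 CPM in wild types (log2 difference -0.59, adjusted p = 0.171). cdkn1a, the cell cycle inhibitor usually named with these genes, was at 0 in 5 of 9 mutants and 5 of 6 wild types and at most 2.70 CPM, so no difference was detectable at this depth. One listed set next to these, 24 other effectors and inhibitors of apoptosis, had no called gene and a median log2 difference of 0.02.

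isg20, an exonuclease gene first known from the interferon response, rose with the arrest genes, at 58.8, 64.4, 75.8, 116.4, 96.4, 123.8, 77.5, 148.4 and 132.3 CPM in mutants 1 to 9, against 36.0 to 59.2 CPM in wild types. The log2 difference was 1.10 ± 0.19 (edgeR adjusted p = 0.00108; 0.014 with the 24 hpf libraries alone). It was the only called gene of 17 listed interferon genes, 13 of which had a negative difference, beside 7854 of all 16431 genes. 5 clone-named genes without a described product, BX470240.1, CU683879.1, CR352342.1, si:dkey-40h20.1 and BX005392.3, had the same 4 leading embryos. BX005392.3, for example, had 83.8, 69.1, 81.2 and 79.1 CPM in mutants 4, 6, 8 and 9, at most 17.5 CPM in the other mutants and at most 15.103 CPM in wild types. Its log2 difference was 2.54 ± 0.52 (edgeR adjusted p = 0.0194). The 5 ranged from 2.54 to 4.19, and none passed with the 24 hpf libraries alone. The 4.19 was that of CR352342.1, which had 0 to 7 counts in wild types. BX005392.3 also lost its call without wild type 3, 5 or 6 (adjusted p up to 0.0816), si:dkey-40h20.1 without wild type 2 or 3 (up to 0.0693) and CR352342.1 without wild type 3 (0.0527).

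Mutants 4, 6, 8 and 9 were taken from the ranking of ccng1, and 8 of the 17 other called higher genes had exactly these 4 as their highest embryos. Over all 16431 tested genes, 54 had them (0.329%), ccng1 included. Genes called higher have mutants on top by the way they were chosen, so the count among called genes is a description only. These 4 were not the deepest libraries as a set, at 5.25, 6.14, 1.98 and 11.02 in units of 1000000 counts. By developmental age they ranked 9, 8, 6 and 7 of the 15 embryos, counted from the most advanced. Among the other mutants, embryo 7 ranked 4 and was more advanced than these. Embryos 5, 1, 3 and 2 ranked 10, 13, 14 and 15 and were less advanced. A link between stage and this split of the mutants was not tested. The arrest and death list holds ccng1 itself, so its average is in part set by the choice of these 4. That average log2 CPM was 4.72, 4.79, 4.55 and 4.61 in these 4 and 4.14 to 4.34 in the other mutants, against 3.87 to 4.14 in wild types. The highest wild type thus overlapped the lowest mutant only. As the libraries are of whole embryos, more RNA in every cell and more cells with the response cannot be told apart.

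The 2 remaining called rises were lyrm1 and ecm2. lyrm1, for a LYR-motif protein of a family that works in mitochondria, had a median of 28.6 CPM in mutants and 15.7 CPM in wild types (log2 difference 0.86 ± 0.19, edgeR adjusted p = 0.0266; 0.86 and 0.0546 without wild type 4). Its call was lost in 12 of 28 alternatives, among them leaving out wild type 2 or 3 or mutant 6 or 8. ecm2, for an extracellular matrix protein, was found in all 9 mutants at 0.498 to 3.17 CPM and in 1 of 6 wild types, wild type 4, at 1.09 CPM (log2 difference 4.61 ± 1.04, edgeR adjusted p = 0.0294). These values rest on 1 to 20 counts in mutants and on 1 count in wild type 4. ecm2 was not among the genes tested with the 24 hpf libraries alone. Its call was lost in 8 of 25 alternatives, namely without any one of wild types 1, 2, 3, 5 and 6 or mutant 6 and with limma voom both ways. pdia6, a protein disulfide isomerase that folds proteins in the endoplasmic reticulum, was lower, at 14.8 to 29.02 CPM in mutants and 23.5 to 53.4 CPM in wild types (log2 difference -0.68 ± 0.16, edgeR adjusted p = 0.0417). The highest wild type for pdia6 was wild type 4, and without it the log2 difference was -0.58 and the adjusted p 0.208; the call was also lost without wild type 3, 5 or 6 or mutant 3, 5, 7, 8 or 9. Of 47 listed genes of protein folding in the endoplasmic reticulum, pdia6 was the only one called. A negative difference was found for 30 of the 47, beside 7854 of all 16431 genes. CR848844.1, clone-named, passed in the fit of 24 hpf libraries alone, at a median of 8.59 CPM in mutants and 21.5 CPM in wild types (log2 difference -1.32 in that fit, adjusted p = 0.0397).

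Ribosome building genes, the group nearest to the known work of Noc2l, were not called apart from noc2l itself. Of 56 genes of large subunit assembly, 49 had a positive difference, beside 8576 of all 16431 genes. The median log2 difference of that list was 0.29. The median was 0.17 over 53 genes of small subunit assembly and 0.24 over 30 genes of nucleolar small RNA particles. Wild type 4 was the lowest embryo for 22 of the 56 large subunit genes, and mutant 5 the highest for 19. Without both, the medians of the 3 lists were 0.19, 0.14 and 0.20. pak1ip1, a large subunit assembly factor, had 55.9 ± 12.8 CPM in mutants and 39.2 ± 5.44 CPM in wild types (SD, n = 9 and 6; edgeR adjusted p = 0.178). gar1, a protein of the particles that modify ribosomal RNA, had 132.5 ± 20.04 CPM in mutants and 97.5 ± 17.3 CPM in wild types (adjusted p = 0.213). In wild types the medians of these 3 lists changed by -0.50, -0.51 and -0.50 on the log2 scale between 24 and 36 hpf, so their level also moves with age. With a score of each embryo's developmental age as a covariate the medians of the genotype difference were 0.15, 0.11 and 0.17.

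Ribosomal protein genes showed how much single embryos weigh. Of 80 tested, 78 had a positive difference and none was called. An unadjusted p under 0.05 was found for 61, and the median log2 difference was 0.24. Over all 16431 tested genes, 8576 had a positive difference and 1309 an unadjusted p under 0.05 in either direction. Mutant 5 was the highest of the 15 embryos for 68 of the 80 genes, and wild type 4 the lowest for 78. rpl11, the member of smallest p, had 2639 to 4543 CPM in mutants, the highest being mutant 5, against 1760 to 2834 CPM in wild types, the lowest being wild type 4 (edgeR adjusted p = 0.0757). The list's median was 0.16 without mutant 5, 0.14 without wild type 4 and 0.06 without both. As they were the highest mutant and the lowest wild type for most of these genes, the smaller median follows from leaving them out.

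Mutant 5 was also the highest embryo for 17 of 28 genes of segmentation and the tail bud, the lowest for 37 of 59 skeletal muscle genes and the highest for 24 of 40 epidermal genes. Over 7799 genes with a mean of at least 10 CPM it was the highest for 15.5% and the lowest for 14.3%, beside 15.4% and 19.8% for wild type 4 and 10.4% and 10.1% for mutant 8. msgn1, a transcription factor of unsegmented paraxial mesoderm, had 124.1 CPM in mutant 5, 5.62 to 46.9 CPM in the other mutants and 4.36 to 18.9 CPM in wild types. her1, a gene of the segmentation clock, had 38.4 CPM in mutant 5, 0.805 to 13.8 CPM in the other mutants and 0 to 5.64 CPM in wild types. Mutant 3 was next for both genes. The epidermal median was 0.15 with all libraries and 0.03 without mutant 5 and wild type 4. Mutant 5 was an extreme for most epidermal and most skeletal muscle genes, so leaving it out moves the medians of both lists by that choice. No listed group outside the arrest, endoplasmic reticulum, large subunit and interferon lists had a called gene in the fit of all 48 libraries, although the skeletal muscle median was -0.10 with all libraries, -0.0021 without mutant 5 and wild type 4, and 0.05 with the age score as a covariate, which turned its sign.

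**Figure D4:**
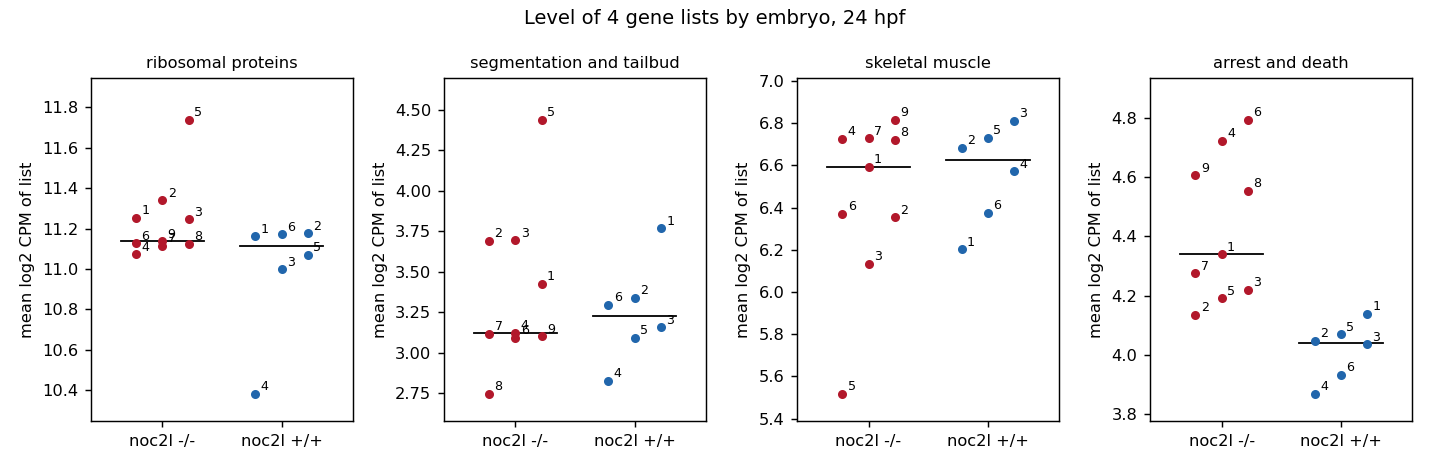
Mean log2 CPM over the genes of 4 lists in each embryo, with embryo numbers and group medians as lines; the vertical axes do not start at 0. Mutant 5 is the highest for ribosomal proteins and for segmentation and tail bud genes and the lowest for skeletal muscle. Wild type 4 is the lowest for ribosomal proteins. Mutants 4, 6, 8 and 9, which were chosen by ccng1, are the 4 highest for arrest and death genes, a list that holds ccng1.

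The other lists, 36 of the 40, held no called gene, and they cover the muscle, blood, vessels, heart, notochord, skin, eye, nerve and pigment cells of the embryo as well as splicing, glycolysis and respiration. Their members of smallest p give the size of the differences that did not pass. anxa1a, an annexin of the epidermis, had 177.5 ± 45.2 CPM in mutants and 116.4 ± 27.1 CPM in wild types (SD, n = 9 and 6; edgeR adjusted p = 0.0698). nupr1a, a stress-induced nuclear protein gene, had 119.0 ± 26.4 CPM in mutants and 71.3 ± 20.5 CPM in wild types (adjusted p = 0.101). myhz2, a fast-muscle myosin heavy chain, had 86.6 ± 34.2 CPM in mutants and 151.5 ± 37.4 CPM in wild types (adjusted p = 0.171). h2ax, the histone that marks broken DNA when phosphorylated, had 73.4 ± 14.9 CPM in mutants and 47.3 ± 12.2 CPM in wild types (adjusted p = 0.177). sox2, a transcription factor of neural progenitors, had 86.7 ± 17.7 CPM in mutants and 66.2 ± 11.4 CPM in wild types (adjusted p = 0.376). Of 75 cell cycle genes, 54 had a negative difference, beside 7854 of all 16431 genes. The median of the 75 was -0.07, which became 0.04 with the age score as a covariate.

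A developmental age score used the 200 rising and the 200 falling genes of smallest edgeR p in wild types between 24 and 48 hpf. It was the average log2 CPM of the rising genes minus that of the falling genes in an embryo. The score came from the same libraries, and genes of the lists were not left out of it. As a covariate it is thus not independent of the lists, and it also takes up any stage difference that goes with genotype. The score averaged -2.53 ± 0.24 in mutants and -2.33 ± 0.26 in wild types (SD, n = 9 and 6; exact two-sided permutation p = 0.149), so a difference in stage between the genotypes did not pass. The difference of -0.20 was -0.33 with 50 and 50 genes (exact permutation p = 0.0182), -0.37 with genes chosen between 24 and 36 hpf (exact permutation p = 0.111) and -0.031 with genes chosen between 36 and 48 hpf (exact permutation p = 0.533). The scores overlapped widely. Read against the wild-type means at 24 and 36 hpf, the median was 23.2 hpf in mutants and 24.8 hpf in wild types, and the extremes were 20.4 hpf for mutant 2 and 25.6 hpf for wild type 4. By the main score the 3 lowest embryos were mutants 2, 3 and 1 and the 3 highest wild types 4, 3 and 5. Wild type 4 was the shallowest library. With genes chosen between 24 and 36 hpf the lowest embryo was wild type 1, at -1.08, and the highest wild type 6, at 0.18. With the main score as a covariate in the fit of all 48 libraries, 27 genes passed, 16 of them among the 20. In that fit 6 genes of the arrest and death list rose in place of 4, phlda3 and baxa being the additions (edgeR adjusted p = 0.00578 and 0.0159). With the score in the fit of the 24 hpf libraries alone, 1 gene of that list passed, and the adjusted p was 0.674 for phlda3 and 0.183 for baxa.

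Against later ages, no gene differed in its mutant effect between 36 and 24 hpf (0% of 16431 called by edgeR; 943 genes had an unadjusted p under 0.05, and DESeq2 and limma voom also called 0). 10 differed between 48 and 24 hpf (0.0609%), and 16 without wild type 4. Among the 10 were tcap, a sarcomere protein gene, the small heat shock genes hspb9 and hspb11, flnca, a filamin, and hbbe3, an embryonic globin. None of these passed at 24 hpf: tcap had 4.81 ± 1.92 CPM in mutants and 4.87 ± 3.05 CPM in wild types, and hbbe3 1612 ± 357 CPM in mutants and 1606 ± 305 CPM in wild types. At 48 hpf tcap had 91.8 ± 69.7 CPM in mutants and 4.70 ± 1.72 CPM in wild types (SD, n = 7 and 9), and the difference of the effects was 4.36 ± 0.65 on the log2 scale (edgeR adjusted p = 0.000152).

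For the arrest genes the later ages differed in evenness more than in the highest level reached. ccng1 spanned 529.3 to 1855 CPM in mutants at 24 hpf, 976.7 to 1973 CPM in mutants at 36 hpf and 1500 to 2091 CPM in mutants at 48 hpf, with coefficients of variation of 49.97%, 20.4% and 12.04%. Mutants 4, 6, 8 and 9 at 24 hpf were thus already within the range of 48 hpf mutants, and the lowest mutant value was higher at each later age. rps27l behaved alike, with coefficients of variation among mutants of 63.9%, 33.4% and 11.2% at the 3 ages. Neither gene's effect differed between ages by the test (edgeR adjusted p = 0.863 for ccng1 and 0.745 for rps27l, 48 against 24 hpf), and the spread itself was not tested. Spread was lower at later ages elsewhere too: in wild types the coefficients of variation were 17.9%, 8.36% and 8.77% for ccng1 and 32.7%, 19.8% and 13.6% for rps27l, and the common biological coefficient of variation over all genes was 35.5%, 30.1% and 28.4%. zgc:56699 ran the other way, with log2 differences of 1.22, 0.74 and 0.46 at 24, 36 and 48 hpf (adjusted p = 0.318 for 48 against 24 hpf). SH3TC1 had log2 differences of 1.41, 1.62 and 2.51 at the 3 ages (adjusted p = 0.318 for 48 against 24 hpf).

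**Figure D5:**
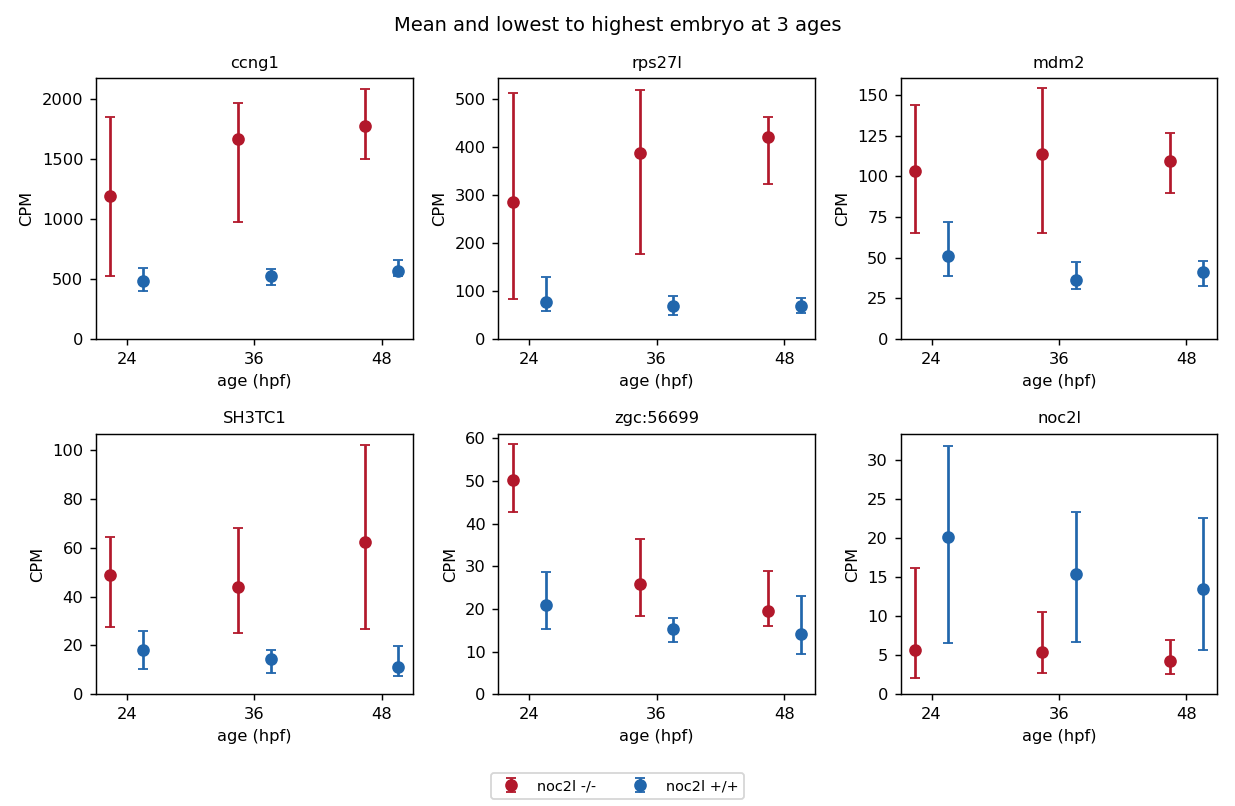
Mean CPM with bars from the lowest to the highest embryo for ccng1, rps27l, mdm2, SH3TC1, zgc:56699 and noc2l at 24, 36 and 48 hpf, mutants left of wild types at each age. The bars of mutants shorten with age for ccng1 and rps27l, and the mutant mean of zgc:56699 is 50.2 CPM at 24 hpf and 19.5 CPM at 48 hpf.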

How the data were processed

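Single embryos were sequenced by Lasy-Seq, a 3' mRNA-seq method that indexes each RNA at reverse transcription and pools libraries early, per the labels' protocols. A count is thus not proportional to a transcript's length. Salmon, BWA 0.7.17-r1188, fastp 0.21.0 and the build GRCz11 are listed in the submitters' processing notes. How these steps followed each other, the annotation and the use of strand are not given in the sources used here; reads of overlapping or antisense genes may therefore be mixed. The table as deposited by the authors holds expected counts per gene (31658 entries for 48 libraries) without normalisation, and these were rounded to whole numbers.

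Genes kept by filterByExpr (minimum count 10; 99.8% of counts) were fitted with edgeR 4.0.16 in R 4.3.3 (TMM scaling, robust quasi-likelihood, 1 mean per group). Adjusted p-values are Benjamini-Hochberg over all genes; SE is derived from the F statistic. Any 2 libraries of a group differed beyond sampling noise (chi-square over its degrees of freedom at least 5.29), so each counts as 1 embryo; p-values concern embryos of 1 family. Replicate numbers did not pair embryos. Alternatives used DESeq2 1.42.0, limma 3.58.1 and others. Exact tests enumerated all rearrangements in Python 3.11.15 with scipy 1.17.1. The age score leaves out genes on the chromosome of noc2l; wild types were scored with genes chosen without them. Chromosomes came from the RefSeq table of GRCz12tu by symbol (83.7% of genes placed); no coordinates were used. Procedures were tested on simulated data.

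Named were noc2l, a panel (mdm2, cdkn1a, ccng1, baxa, bbc3, rps27l, phlda3, casp8), all called genes with a symbol and the 3 members of smallest p of each list, as space allowed; clone-named genes and others were picked after their values were seen. The members and lists were chosen with earlier results of these data known. 1 gene is not reported here. No sequences were used.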

Additional observations from a re-analysis of the deposited data

Results flagged for a closer look

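Each named gene, library measure and the age score was checked for a lone embryo far from the rest of its genotype, over 60 groups of values, of which chance would mark about 1 in 20; 9 were marked. noc2l was highest among mutants in embryo 5, at 16.3 CPM, casp8 in mutant 6, at 28.9 CPM, and CR848844.1 in mutant 4, at 19.8 CPM. Among wild types, embryo 1 stood apart for rps27l at 128.4 CPM and for CU683879.1 at 5.03 CPM. Wild type 4 did so for si:dkey-126g1.9 at 76.3 CPM, for si:dkey-40h20.1 at 13.1 CPM and for ecm2 at 1.09 CPM, and wild type 5 for cdkn1a at 1.07 CPM. The values of wild type 4 rest on the shallowest library, of 0.798 in units of 1000000 counts.

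The genotype effect differed between 48 and 24 hpf by edgeR's test for 10 genes. The log2 difference of effects was 4.77 for CABZ01012957.1, 4.66 for hspb9, 4.36 for tcap, 3.04 for hspb11, 2.57 for flnca, 1.21 for hbbe3 and 1.16 for rasd1. It was -1.52 for sb:cb37, -2.59 for igfn1.3 and -6.62 for si:ch211-255g12.6.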

How the results depend on the processing

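The count of called genes at 24 hpf, 20 in edgeR on all libraries, was 38 with DESeq2, 5 with limma voom and 5 with voom and sample weights. It was 8 with the 24 hpf libraries alone, 6 with these and the age score as a covariate, and 13 without wild type 4 and mutant 8 together. Leaving out 1 embryo at a time gave 15 to 34. Without wild type 4 and mutant 5 together, an alternative chosen after seeing the data, it was 20, of which 16 were shared. zgc:56699, mdm2 and noc2l passed in every alternative run. noc2l lay between -2.39 and -1.78, the -2.39 coming from the fit without wild type 4 and mutant 5. ccng1 was lost in 2 of 28, rps27l in 4, isg20 and SH3TC1 in 2 each, and malb and pdia6 in 16 and 18. None of the 42 genes followed through the alternatives, some added after seeing the data, changed sign. Genes differing between 48 and 24 hpf, 10 in the main fit, numbered 36 with DESeq2, 4 with limma voom and 16 without wild type 4. The age score difference of -0.20 was -0.33 with 50 and 50 genes (exact permutation p = 0.0182), -0.37 with genes of 24 to 36 hpf (0.111), -0.031 with genes of 36 to 48 hpf (0.533) and between -0.27 and -0.15 when 1 embryo was left out. The share of the 10 most abundant genes, 0.592 points lower in mutants (-0.592), was 0.0219 points higher without wild type 4. With the replicate number as a block, 16 genes passed at 24 hpf, 14 of them shared, and 12 differed between 48 and 24 hpf; same-numbered embryos did not deviate together (correlations -0.05 to 0.06), so numbers do not pair them. In no alternative did scaling move the median of all genes by over 0.1. Low counts limit noc2l, cdkn1a and ecm2 in shallow libraries. Wild-type counts were also low for CR352342.1 (0 to 7), BX470240.1 (3 to 9), CU683879.1 and si:dkey-40h20.1 (1 to 12 each) and si:ch211-134c9.2 (0 to 13). The causes of these changes were not tested.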
